A study of Rattus norvegicus with 18 samples.

Results

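The 7 genes described here encode enzymes, a helper protein and a receptor of eicosanoid signalling: Pla2g2a, Ptgs2, Ptgs1, Ptger4, Alox15, Alox5 and Alox5ap. They were represented by 10 of the 8740 probe sets tested, that is, by 7 of the 4736 genes named on the array. Ptgs2, Alox15 and Alox5ap had 2 probe sets each, and for every gene the brightest probe set over all arrays leads. The genes were chosen by their measured changes after fracture, in particular the rise of Ptgs2 and the loss of Alox15, so their changes over the time course are given as descriptions. Numbers of these genes past a threshold over time are printed beside those of all probe sets, and no p-value is given for them.

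Messenger RNA was measured on 18 Affymetrix arrays of rat genes, 1 for each of 3 ages and 6 times, with RNA from 2 rats pooled on each. By their labels all 18 belong to the same series of the study. Intact female Sprague-Dawley rats were 6 weeks (young), 26 weeks (adult) or 52 weeks (older) of age when a femur was broken in mid-shaft and held by an intramedullary rod. Bone around the break was collected at 5 later times (0.4 week and then 1, 2, 4 and 6 weeks), and the 0 time rats of each age had no fracture. The collected segment held cortical bone, marrow and callus together, so fewer cells of a type and less RNA per cell cannot be told apart in these values. With 1 array for each age and time, the arrays of young, adult and older rats stood in for replicates at each time, and the p-values measure the spread between these arrays.

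Eicosanoids are signalling lipids made from arachidonic acid, which phospholipases A2 such as the secreted group IIA enzyme encoded by Pla2g2a release from membranes. Cyclooxygenases turn it into prostaglandins: Ptgs1 encodes the form found in most resting tissues, and Ptgs2 the form switched on by injury and cytokines, which fracture repair in mice is known to depend on. Ptger4 encodes EP4, a receptor through which prostaglandin E2 raises cyclic AMP in bone cells. Lipoxygenases use the same substrate: Alox5, with the membrane protein encoded by Alox5ap, makes leukotrienes in white blood cells, and Alox15 encodes a 12/15-lipoxygenase whose rabbit counterpart is abundant in maturing red cells.

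The 2 cyclooxygenase genes lie apart in the rat genome, Ptgs2 at chr13:64714063-64722320 and Ptgs1 at chr3:39981419-40002993 (GRCr8), and their promoters are shown because their signals behaved differently after fracture. RefSeq start sites gave promoters for 5 of the 7 genes, and Alox15 and Alox5ap had no entry. The 250 bases before each start, on the plus strand, are printed 5′ to 3′ with every match to 5 short motifs, sought on both strands, in capitals. The motifs were the TATA box in the form TATAAA, the E-box in the form CACGTG, a C/EBP motif in the form TTATGCAAT, the GC box in the form GGGCGG, and the CCAAT box.
Ptgs2, chr13:64713813-64714062: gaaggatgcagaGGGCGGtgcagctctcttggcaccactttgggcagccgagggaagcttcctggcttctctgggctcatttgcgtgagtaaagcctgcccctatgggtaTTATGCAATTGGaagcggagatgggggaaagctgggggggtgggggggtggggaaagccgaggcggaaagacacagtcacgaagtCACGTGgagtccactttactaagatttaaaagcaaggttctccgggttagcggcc
Ptgs1, chr3:39981169-39981418: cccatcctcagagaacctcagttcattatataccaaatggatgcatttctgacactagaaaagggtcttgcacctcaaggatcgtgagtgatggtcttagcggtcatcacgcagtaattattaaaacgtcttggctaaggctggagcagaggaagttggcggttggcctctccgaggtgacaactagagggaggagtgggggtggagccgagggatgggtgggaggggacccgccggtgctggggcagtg
Ptgs2 held a GC box at -238, the C/EBP motif at -140, a reverse CCAAT box at -133 that overlaps the end of the C/EBP motif, and an E-box at -55, counted from the start site. Ptgs1 held none of the 5 motifs, and the TATA box was in neither window. Among 33469 rat promoters of this length, the C/EBP motif occurred in 0.14%, the E-box in 5.59%, the TATA box in 12.9%, the GC box in 30.5% and the CCAAT box in 34% of windows. Of the other members with an entry, Alox5 held a GC box and Pla2g2a a CCAAT box. These matches describe letters only.

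Signals are on the scale of the deposited values, on which each array averages 500, and values below 20 were set to 20 before the log2 transform. Folds are ratios of geometric means, given as "at least" where some of the lower signals were set to 20. The median signal was 151 to 189 over the 18 arrays, and 10.5% to 17.9% of probe sets lay below 20. The ratio of 3′ to 5′ signal of Gapdh, a measure of RNA integrity, was 3.48 and 6.57 on the young 4-week and 6-week arrays and at most 1.83 on the other 16, so the comparisons over time were also computed without them. That could not be done for older against young rats at weeks 4 and 6, where these 2 arrays are the only young ones. Of the 8740 probe sets, 26.4% passed the moderated F test over the 5 later times at an adjusted p of 0.05, 13.4% with the largest change upward and 13.1% downward. Among the members, 1 of 7 passed upward (Ptgs2) and 3 of 7 downward (Alox15, Alox5 and Pla2g2a). Those counts follow from how the genes were chosen, and nothing is read from them.

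Pla2g2a, the phospholipase, was lost after fracture and came back late, most fully in young rats. In young rats its signal was 499 with no fracture and 206, 12.4, 51.3, 436 and 646 at the 5 later times, in order. In adult rats it was 515, then 120, 9.2, 13.0, 190 and 198. In older rats it was 513, then 78.4, 29.9, 17.0, 121 and 185. The 3 unfractured arrays were nearly equal, and every array of weeks 0.4 to 4 lay below them. The change from 0 time was -2.03 ± 0.72 at 0.4 week on the log2 scale, then -4.48 ± 0.33 (1 week) and -4.22 ± 0.81 after 2 weeks (mean ± SD over the 3 ages). Since 2 of the 3 arrays were below 20 at week 1, the loss there was at least 22.3-fold. As 2 of 3 were below 20 at week 2 also, the SDs of both weeks were partly set by the floor.

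Ptgs2, the inducible cyclooxygenase, showed the opposite course, with its peak at 0.4 week in young and adult rats and at 1 week in older rats. In young rats the signal of the brightest probe set was 3.4 with no fracture and 835, 268, 36.6, 12.7 and 7.2 at the later times. In adult rats it was 9.5, then 681, 45.2, 80.7, 42.2 and 19.7. In older rats it was 6.8, then 682, 989, 151, 43.2 and 25.3. All 3 unfractured arrays were below 20, the 3 arrays of 0.4 week lay within a narrow band, and the ages spread out at 1 week. The change from 0 time was 5.19 ± 0.17 at 0.4 week (log2, mean ± SD, n = 3 ages). It was 3.52 ± 2.23 at 1 week, 1.93 ± 1.03 after 2 weeks and 0.11 ± 0.20 after 6. At 6 weeks 2 of the 3 arrays were also below 20, so that last change and its SD were set largely by the floor. Before flooring, each 6-week signal lay above the 0 time signal of its age. With the 0 time arrays set to 20, the rise at 0.4 week was at least 36.5-fold.

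The second Ptgs2 probe set, L25925_s_at, did not show this course. Its signal in young rats was 22.8 with no fracture, then 196, 103, 79.7, 73.3 and 125. In adult rats it was 187, then 185, 68.5, 104, 123 and 93.5, and in older rats 144, then 203, 278, 69.4, 82.0 and 104. The 3 arrays of 0.4 week did not all lie above the unfractured ones, and the change at 0.4 week was 1.19 ± 1.67 on the log2 scale. Over the 18 arrays the log2 signals of the 2 Ptgs2 probe sets correlated at r = 0.56, against 0.96 for the pair of Alox15 and 0.81 for the pair of Alox5ap (descriptions over arrays that share the same scaling). Which of them follows Ptgs2 more closely could not be settled from the files, and the statements on Ptgs2 below are of the brightest probe set, which leads for every gene.

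**Figure D1:**
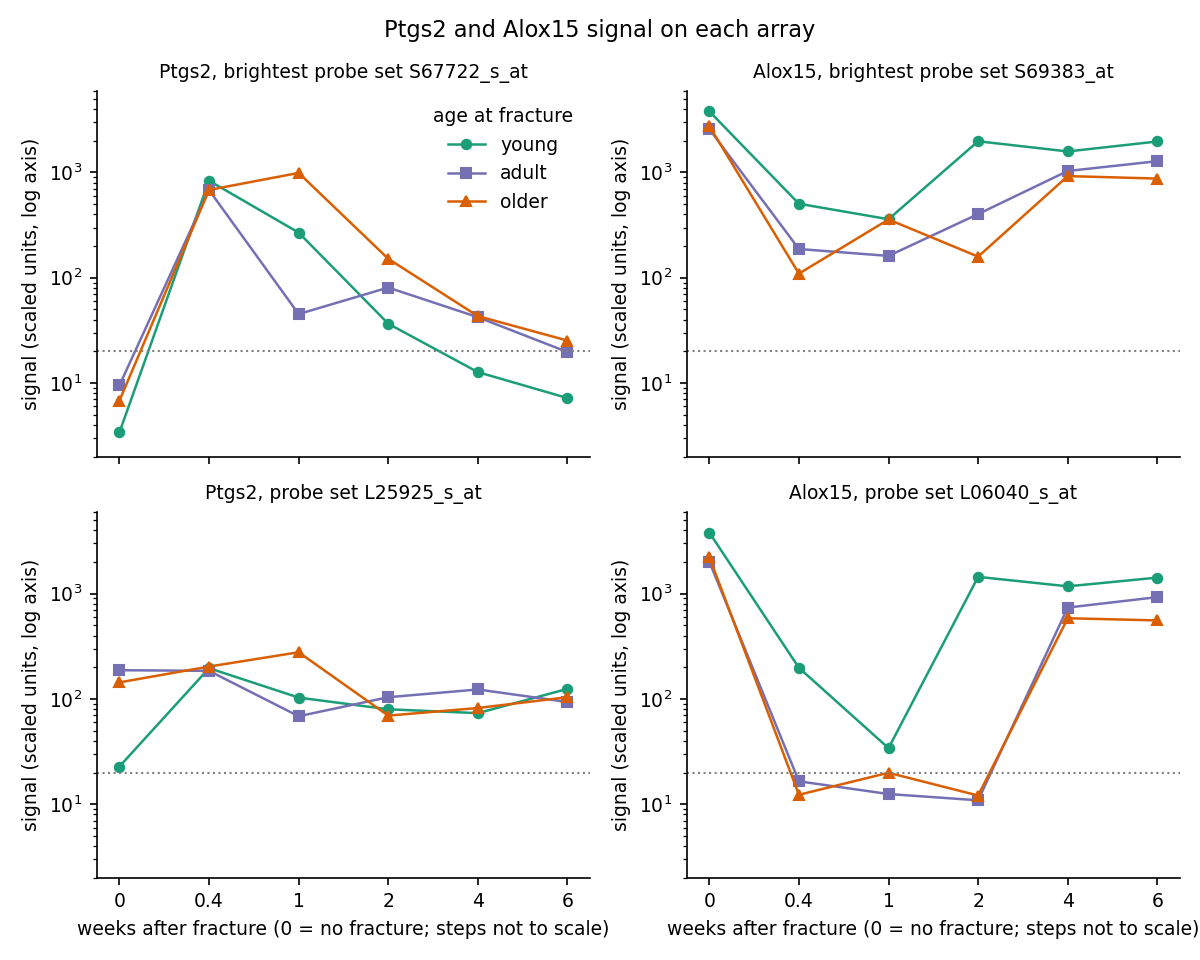
Signal of both probe sets of Ptgs2 (left) and Alox15 (right) on each of the 18 arrays, on a log axis, against weeks after fracture (0 is no fracture, steps not to scale). Each point is 1 array, lines join the arrays of an age, and the dotted line is the floor of 20. Ptgs2 S67722_s_at stands at 681 to 835 at 0.4 week at all ages and at 989 in older rats at 1 week, while L06040_s_at of Alox15 falls below 20 in adult and older rats at 0.4, 1 and 2 weeks.

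Ptgs1, the cyclooxygenase of resting tissue, varied little. Its signals in young rats were 601 with no fracture and 478, 440, 301, 520 and 318 at the later times. In adult rats they were 617, then 391, 298, 264, 485 and 307, and in older rats 414, then 391, 438, 453, 491 and 387. The change from 0 time lay between -0.70 ± 0.73 (2 weeks) and -0.10 ± 0.31 (4 weeks) on the log2 scale, and only at 6 weeks did all 3 arrays lie below the unfractured ones. Ptgs1 and Ptgs2 correlated at r = 0.01 over the 18 arrays.

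Ptger4, the EP4 receptor, was dim throughout. Its signals in young rats were 27.1 with no fracture and 96.4, 21.2, 31.6, 52.3 and 16.1 at the later times. In adult rats they were 24.7, then 23.3, 17.3, 12.8, 26.9 and 17.9, and in older rats 45.9, then 95.4, 104, 21.5, 24.1 and 21.5. The 3 highest arrays were those of young and older rats at 0.4 week and of older rats at 1 week. The older 1-week array was therefore the highest of its time for both Ptgs2 and Ptger4, and the change of Ptger4 at 0.4 week, 0.93 ± 0.96 on the log2 scale, was within the spread between ages.

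Of 16 inflammatory and immediate early genes, 11 had their highest 1-week signal on this older array and 3 their lowest. Il6, the cytokine interleukin 6, had signals of 69, 75 and 1060 in young, adult and older rats at 1 week, against 626, 886 and 732 at 0.4 week. Egr1 and Fos, 2 immediate early transcription factors, had signals of 10429 and 4290 on the older 1-week array, against at most 4177 and 1690 in young and adult rats at that time. Nos2, the inducible nitric oxide synthase, was among the 3 with the lowest signal there, at 64.3 in older rats against 216 and 131 in young and adult rats (chosen after its values were seen). The summed signal of the 16 genes, to which Egr1 and Fos gave most, was 23405 on that array, the highest at 1 week, where the lowest was 10817 and the median 12098. Over all probe sets this array correlated best with the adult 1-week array (r = 0.97). The part of this 1 pool of 2 rats in the 1-week values of Ptgs2 and Ptger4 cannot be separated from age, since no other older array of that time was analysed here.

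Alox15, the 12/15-lipoxygenase, had a strong signal in unfractured bone and fell at all 3 ages. In young rats the signal of S69383_at was 3807 with no fracture and 504, 360, 1978, 1582 and 1968 at the later times. In adult rats it was 2577, then 187, 161, 403, 1033 and 1279, and in older rats 2756, then 109, 358, 159, 923 and 875. Every array after fracture lay below the 3 unfractured ones, and of the 3 ages only the young rats had regained most of their signal by 2 weeks. The change from 0 time was -3.78 ± 0.87 at 0.4 week and -3.45 ± 0.53 at 1 week (log2, mean ± SD, n = 3 ages). It was -2.58 ± 1.59 at 2 weeks, with the widest spread, -1.39 ± 0.17 after 4 weeks and -1.21 ± 0.39 after 6, so that the loss was 13.8-fold at 0.4 week and still 2.31-fold at 6 weeks.

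The second Alox15 probe set fell further. Its signals in young rats were 3804 with no fracture, then 198, 34.1, 1443, 1173 and 1420. In adult rats they were 2016, then 16.5, 12.5, 10.9, 737 and 927, and in older rats 2227, then 12.3, 19.9, 12.1, 584 and 557. All 6 adult and older arrays of 0.4, 1 and 2 weeks were under 20, while the young 2-week array stood at 1443. The change at 1 week was -6.75 ± 0.08, a loss of at least 108-fold. The adult and older signals of that week were set to 20, so this SD was set largely by the floor.

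Marker genes of several blood cell lineages moved with Alox15, those of red cell precursors among them. All 5 of the measured erythroid markers (of 8 listed) were lower at 0.4 week and at 1 week and all 5 higher at weeks 4 and 6 than at weeks 1 and 2. Among all 8740 probe sets, 1493 were lower at 0.4 week, 1781 lower at 1 week and 773 higher at weeks 4 and 6. The summed signal of the erythroid markers ranged over the 3 ages from 37247 to 60893 with no fracture, 4387 to 7638 at 0.4 week and 2246 to 4529 at 1 week. It then ranged from 5288 to 33591 (2 weeks) and from 22576 to 49092 (6 weeks). At 2 weeks Slc4a1, the red cell anion exchanger, had signals of 3204, 182 and 235 in young, adult and older rats, and Alas2, the first enzyme of red cell haem synthesis, of 6788, 645 and 689. These values split the young array from the other ages at 2 weeks as those of Alox15 did. Averaged on the log2 scale, the erythroid list correlated with Alox15 at r = 0.94 over the 18 arrays, the neutrophil list at 0.86, the platelet list at 0.82, the eosinophil list at 0.79 and the skeletal muscle list at 0.69. The mast cell list stood at 0.61. Of the eosinophil list only 2 of 9 genes were measured. Among lists that ran the other way were the inflammatory and immediate early genes at -0.65, the fibroblast and osteoblast list at -0.52 and the monocyte and macrophage list at -0.46. The part of these cell types in the changes of Alox15 was not tested.

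Alox5, the leukotriene-forming lipoxygenase, was close to the floor from 0.4 to 2 weeks and returned at 4 and 6 weeks. In young rats its signal was 73.3 with no fracture and 9.1, 28.3, 18.4, 170 and 226 at the later times. In adult rats it was 107, then 41.5, 15.1, 14.3, 124 and 107, and in older rats 181, then 21.3, 18.5, 7.2, 64.5 and 76.6. All 9 arrays of 0.4 to 2 weeks lay below the unfractured ones, and 6 of them were below 20. The change was -2.49 ± 0.66 at 2 weeks, a loss of at least 5.62-fold, and 0.13 ± 1.44 at 6 weeks (log2, mean ± SD, n = 3 ages), with the young arrays of 4 and 6 weeks above their unfractured control and the older ones below theirs. All 3 arrays of 2 weeks were set to 20, so the SD of 0.66 is that of the unfractured signals.

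Alox5ap, the partner protein of Alox5, did not share this drop. Its brightest probe set had signals in young rats of 624 with no fracture and 416, 349, 426, 663 and 824 later. In adult rats they were 239, then 376, 250, 349, 485 and 427, and in older rats 580, then 492, 424, 319, 597 and 462. No time lay wholly outside the range of the unfractured arrays, which the low adult array (239) made wide. The mean change stayed between -0.41 ± 0.45 (1 week) and 0.38 ± 0.55 (4 weeks). The second probe set, rc_AI104781_at, ranged from 49.1 to 472 over all arrays, and its lowest value was the unfractured adult array.

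**Figure D2:**
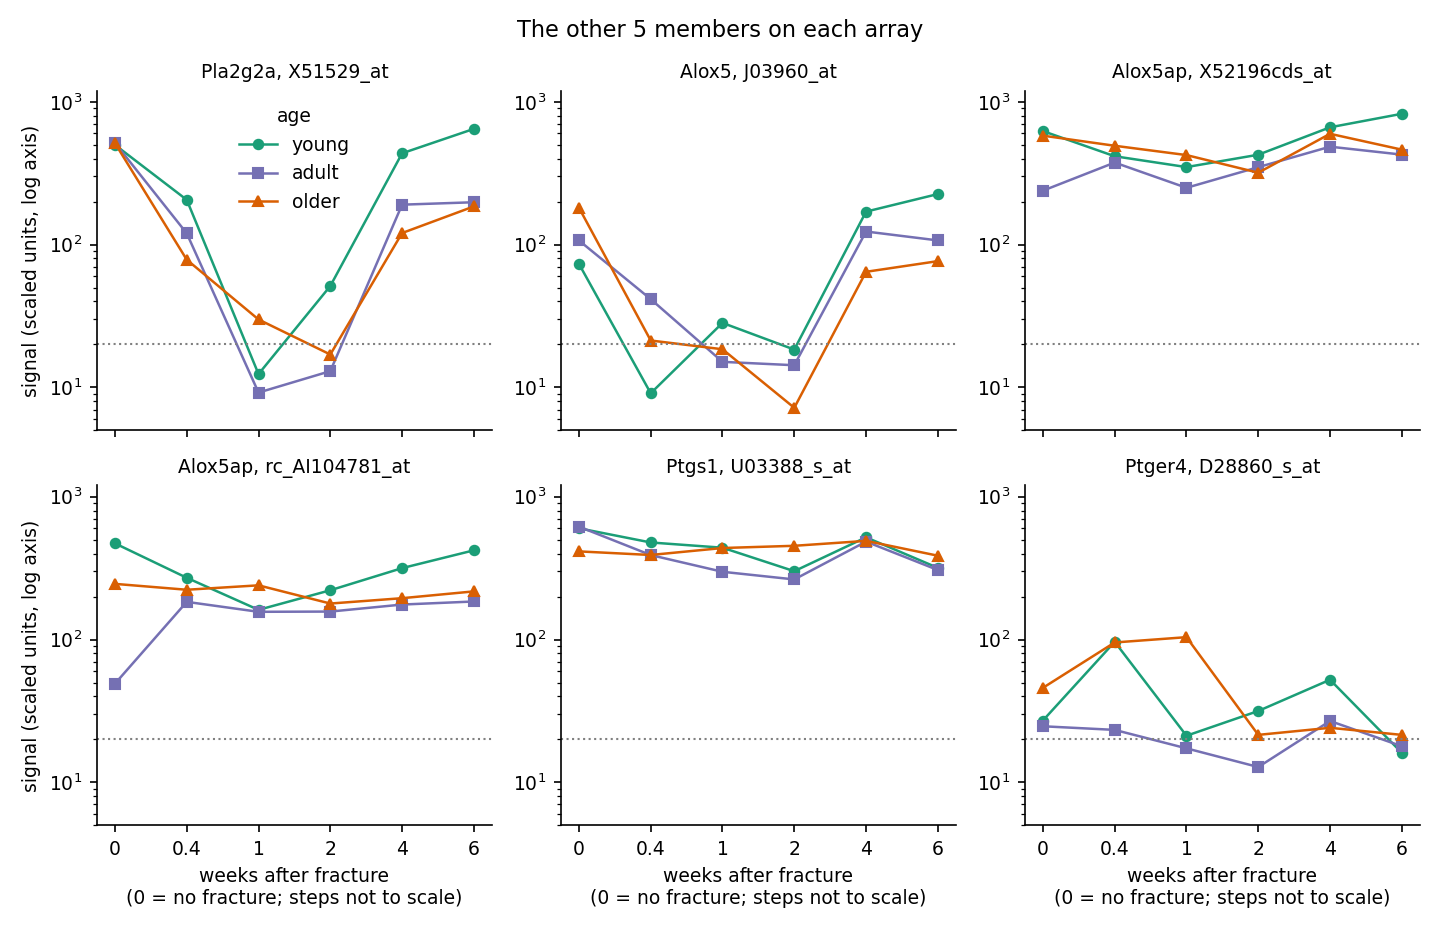
Signal of the probe sets of Pla2g2a, Alox5, Alox5ap (2 probe sets), Ptgs1 and Ptger4 on each array, on a log axis, against weeks after fracture (0 is no fracture, steps not to scale). Points are single arrays joined by age, and the dotted line is the floor of 20. Pla2g2a and Alox5 drop towards or below 20 at 1 and 2 weeks and rise again at 4 and 6 weeks, most in young rats, while Ptgs1 stays between 264 and 617.

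Markers of the same lineages moved with Pla2g2a and Alox5. All 5 of the measured neutrophil genes (of 12 listed) were lower at 0.4 week and at 1 week, and all 5 were higher at weeks 4 and 6 than at weeks 1 and 2. Their summed signal over the 3 ages was 14505 to 28577 with no fracture, 870 to 8384 at 0.4 week and 1758 to 2011 at 1 week. It was 998 to 2306 after 2 weeks, 3376 to 21581 after 4 and 6917 to 33558 after 6. At 6 weeks S100a8, a calcium-binding protein of neutrophils, had signals of 14170, 4261 and 2954 in young, adult and older rats, the same order of ages as Pla2g2a and Alox5. Of the 6 measured platelet and megakaryocyte genes (of 12 listed), 4 were lower at 0.4 week. At 1 week 3 were lower and 1 was higher, and 3 were higher at weeks 4 and 6 than at weeks 1 and 2. Of all 8740 probe sets, 1493 were lower at 0.4 week and 1781 at 1 week, and 773 were higher at weeks 4 and 6. Over the 18 arrays Pla2g2a correlated at r = 0.89 with the neutrophil list, 0.85 with the eosinophil, 0.82 with the platelet and 0.80 with the erythroid list. Alox5 correlated at 0.83, 0.81, 0.69 and 0.81 with the same lists. Of the eosinophil list only 2 of 9 genes were measured. Among lists that ran the other way was the chondrocyte list, at -0.86 with Pla2g2a and -0.71 with Alox5. The monocyte and macrophage list stood at -0.55 and -0.52. The part of these cell types in the changes of both genes was not tested.

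Whether the members moved on as healing went from its early to its late phase was asked by setting weeks 4 and 6 against weeks 1 and 2, a contrast in which the arrays of 0 time and 0.4 week had no weight. Of 8740 probe sets, 8.84% were higher and 5.98% lower at weeks 4 and 6 (limma, Benjamini-Hochberg adjustment over all probe sets), that is, 773 and 523, or 531 and 712 after scaling the arrays to 1 median. Of the 7 members, 4 passed upward (Pla2g2a, Alox15, Alox5 and Alox5ap) and 1 downward (Ptgs2), with 6 arrays in each phase. The genes were chosen on the whole time course, which holds these weeks, so nothing is read from those counts and the differences are given with their SE alone. Without the adult arrays 0 of the 7 and 0.641% of all probe sets passed.

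Pla2g2a had signals of 121 to 646 (median 194) at weeks 4 and 6 and of 9.2 to 51.3 (median 15) at weeks 1 and 2. The phases did not overlap, and the difference of 3.31 ± 0.31 on the log2 scale (SE) was at least 9.94-fold. Alox5 had signals of 64.5 to 226 (median 115) at weeks 4 and 6 and of 7.2 to 28.3 (median 16.8) at weeks 1 and 2. Its phases did not overlap either, and the difference was 2.46 ± 0.33, at least 5.50-fold.

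Alox15 had signals of 875 to 1968 (median 1156) at weeks 4 and 6 and of 159 to 1978 (median 359) at weeks 1 and 2. The phases overlapped only through the young 2-week array. The difference was 1.72 ± 0.39 for the brightest probe set, and 1.94 without the young 4-week and 6-week arrays. For the second probe set it was 4.25 ± 0.70, made up of 2.54 in young rats, 5.37 in adult rats and 4.83 in older rats.

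Alox5ap had signals of 427 to 824 (median 541) at weeks 4 and 6 and of 250 to 426 (median 349) at weeks 1 and 2. The lowest late signal lay just above the highest early one, and the difference of 0.69 ± 0.18 was 1.62-fold. Its second probe set differed by 0.38 ± 0.35.

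Ptgs2 had signals of 7.2 to 43.2 (median 22.5) at weeks 4 and 6 and of 36.6 to 989 (median 116) at weeks 1 and 2. The difference was -2.30 ± 0.55 on the log2 scale, at least 4.94-fold lower at weeks 4 and 6, and between -2.93 and -1.68 with an age left out. The second probe set differed by -0.05 ± 0.46. Ptgs1 differed by 0.20 ± 0.15 and Ptger4 by -0.17 ± 0.40.

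**Figure D3:**
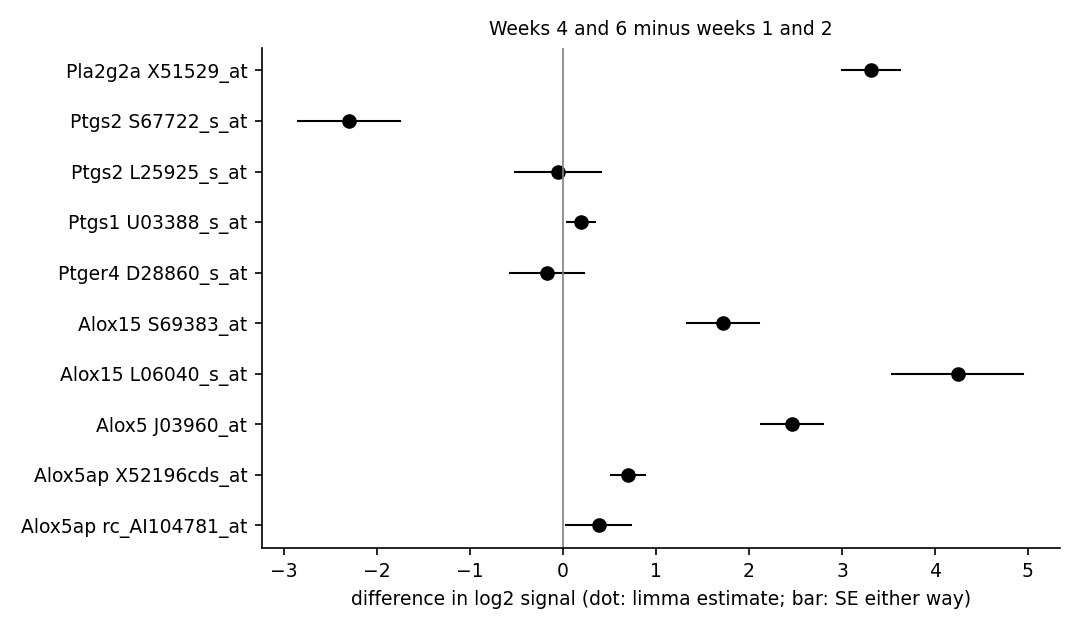
Difference in log2 signal between weeks 4 and 6 and weeks 1 and 2 for the 10 probe sets of the 7 genes. Dots are limma estimates and bars reach 1 SE to either side. Pla2g2a (3.31), Alox15 (1.72 and 4.25), Alox5 (2.46) and the brightest Alox5ap probe set (0.69) lie to the right of 0, and the brightest Ptgs2 probe set (-2.30) to the left.

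Older and young rats were compared at weeks 1 and 2 and at weeks 4 and 6, the phases in which the study compared them. At weeks 1 and 2, 0% of the 8740 probe sets passed by limma, and 5.73% of them and 0 of the 7 members had an unadjusted p under 0.05. Alox15 had signals of 358 and 159 in older rats at 1 and 2 weeks, against 360 and 1978 in young rats. The difference was -1.82 (95% interval -3.99 to 0.34, limma adjusted p = 0.925), and it came from the 2-week arrays. Ptgs2 had signals of 989 and 151 in older rats, against 268 and 36.6 in young rats, higher at both weeks, with a difference of 1.96 (95% interval -0.56 to 4.49, limma adjusted p = 0.925).

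At weeks 4 and 6, 0.149% of probe sets passed and 0 of 7 members did, while 2 of 7 members and 14.6% of all probe sets had an unadjusted p under 0.05. Alox5 had signals of 64.5 and 76.6 in older rats at 4 and 6 weeks, against 170 and 226 in young rats, a difference of -1.48 (95% interval -2.03 to -0.93, limma adjusted p = 0.087). Pla2g2a had signals of 121 and 185 in older rats, against 436 and 646 in young rats, a difference of -1.83 (95% interval -3.10 to -0.55, limma adjusted p = 0.199). Both were lower in older rats at both weeks, and both passed when 50 was added to every signal in place of the floor (adjusted p of 0.0355 for Alox5 and 0.0341 for Pla2g2a), a setting in which 2.31% of all probe sets passed. The second Alox5ap probe set was also lower in older rats, by 0.83 on the log2 scale (95% interval of the difference -1.46 to -0.19, limma adjusted p = 0.231). The young arrays of these weeks are those with the raised 3′ to 5′ ratios, and the part of that difference was not tested. The spread in this fit also came from weeks 1 and 2, where signals below 20 were set to 20. For Alox5 these were 2 of 3 arrays at 1 week and 3 of 3 at 2 weeks, for Pla2g2a 2 of 3 at each. The intervals of both genes were therefore partly set by the floor.

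Over all 5 later weeks, 0% of probe sets passed for older against young rats by this test, with 3 of 7 members and 12.6% of all probe sets at an unadjusted p under 0.05. Without the young 4-week and 6-week arrays these were 1 of 7 members and 7.75% of all probe sets. Alox15 was lower in older than in young rats at 5 of 5 weeks, by 1.56 on the log2 scale (95% interval of the difference -2.57 to -0.55, limma adjusted p = 0.233). At 1 week its signals were nearly equal (358 against 360), and its unfractured signal was also lower in older rats (2756 against 3807). Pla2g2a was lower in older rats at 4 of 5 weeks (difference -1.17, interval -1.90 to -0.43, limma adjusted p = 0.229), and Alox5 at 4 of 5 weeks (difference -0.67, interval -1.34 to -0.0039, limma adjusted p = 0.394). For the cyclooxygenases the differences were 1.02 for Ptgs2 (interval -0.43 to 2.47) and 0.10 for Ptgs1 (interval -0.20 to 0.40).

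When each age was set against its own unfractured array, 6.59% of probe sets changed differently in older than in young rats and 6.97% in adult than in young rats. None of the 7 brightest probe sets passed in either comparison by limma, with 1 of 7 at an unadjusted p under 0.05 for older against young rats (Alox5, difference -1.98, 95% interval -3.63 to -0.33, adjusted p = 0.159) and 1 of 7 for adult against young rats (Alox5ap, difference 0.92, interval 0.03 to 1.82, adjusted p = 0.217). At that threshold lay 20.7% and 21.4% of all probe sets in the same comparisons. Among the second probe sets, rc_AI104781_at of Alox5ap changed by 2.64 ± 0.47 (SE) more in adult than in young rats (limma adjusted p = 0.00947). That test turned on the unfractured arrays, whose signals were 49.1 in the adult rats and 472 in the young rats, 1 array each.

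**Figure D4:**
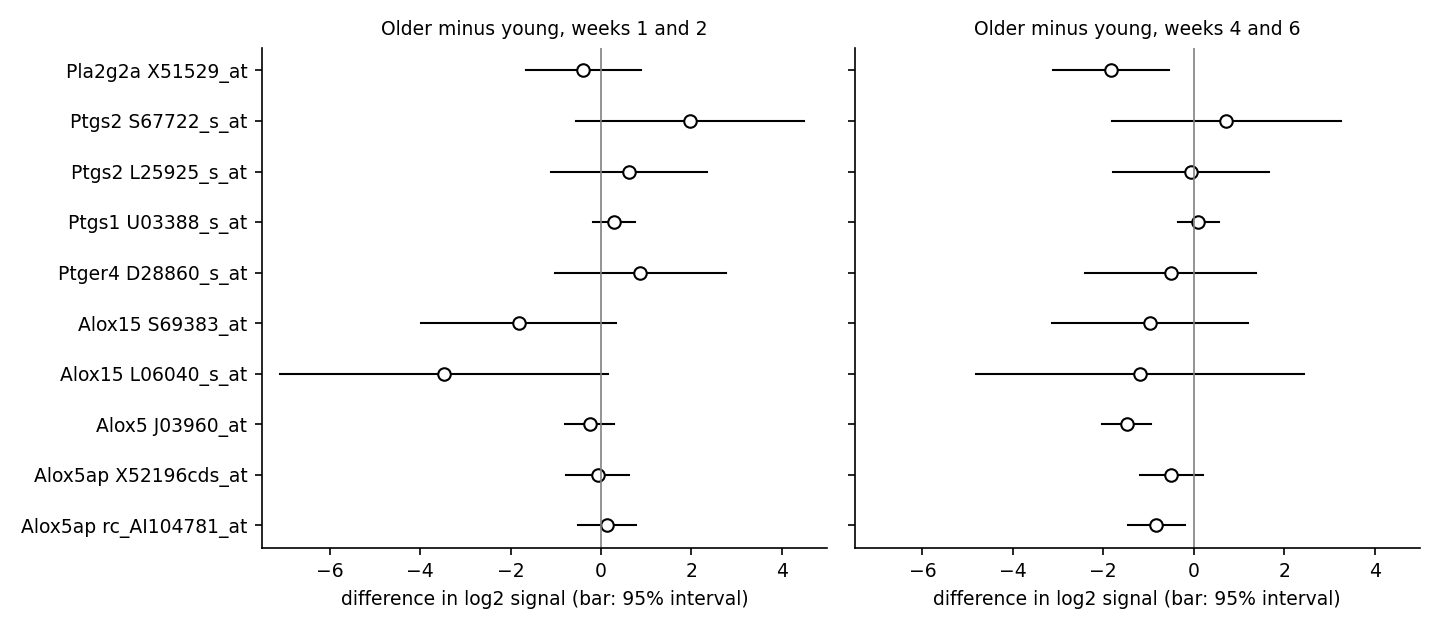
Difference in log2 signal between older and young rats at weeks 1 and 2 (left) and at weeks 4 and 6 (right) for the 10 probe sets. Dots are limma estimates and bars 95% intervals, with 2 arrays per age in each phase, and open dots did not pass an adjusted p of 0.05. The intervals of Pla2g2a, Alox5 and rc_AI104781_at of Alox5ap lie below 0 at weeks 4 and 6 (estimates -1.83, -1.48 and -0.83), and none of the 10 passed the adjustment. Those of Pla2g2a and Alox5 were partly set by the floor at weeks 1 and 2.

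Of the other genes of the pathway, 30 of the 61 listed were measured, and 8 of these 30 passed the F test over the 5 later times, 4 with the largest change upward and 4 downward. That share is close to the 26.4% of all probe sets. Without the adult arrays 0 of the 30 and 0.297% of all probe sets passed, and without the older arrays 0 of the 30 and 2% of all. Their median largest change was -0.57 on the log2 scale, against -0.33 over all probe sets. By role, 1 of 6 phospholipase genes, 2 of 9 genes of prostanoid synthesis and breakdown, 2 of 7 prostanoid receptor genes and 3 of 8 lipoxygenase and leukotriene genes passed. The prostaglandin E synthases, which act directly after the cyclooxygenases, were among the genes not named on this array.

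Ptgfrn, a membrane protein that lowers ligand binding by the prostaglandin F receptor, rose most. Its signal was 1283, 1412 and 2090 in young, adult and older rats at 1 week, against 708, 300 and 207 with no fracture. The change was 2.14 ± 0.39 on the log2 scale (SE, F test adjusted p = 0.0157), 4.42-fold. Its change from the own control was larger by 2.19 ± 0.36 in older than in young rats (limma adjusted p = 0.00679), where the unfractured signals, 207 in older and 708 in young rats, differ more than those after fracture.

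Ptgr1, an enzyme that inactivates leukotriene B4 and prostaglandins, had signals of 93.1, 174 and 132 in young, adult and older rats at 0.4 week, against 38.7, 26.0 and 35.9 with no fracture. The rise was 1.96 ± 0.35 (F test adjusted p = 0.0127), 3.89-fold, with no overlap of the groups. At that week 1484 of all 8740 probe sets lay wholly above 0 time. Ptger2, the EP2 receptor for prostaglandin E2, was dim, with signals of 33.6, 36.4 and 43.1 at 1 week against 14.1, 26.0 and 20.7 with no fracture, and rose by 0.76 ± 0.22 with the young unfractured signal set to 20 (adjusted p = 0.036). Plaa, the phospholipase A2-activating protein, rose by 0.46 ± 0.15 at 0.4 week (adjusted p = 0.012) and was lower at weeks 4 and 6 than at weeks 1 and 2 by limma (adjusted p = 0.00624).

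Hpgds, a prostaglandin D synthase, fell. Its signals were 120, 81.5 and 81.3 in young, adult and older rats at 2 weeks, against 199, 161 and 341 with no fracture, a change of -1.26 ± 0.36 (F test adjusted p = 0.0294). Like Alox5 it was higher again at weeks 4 and 6 than at weeks 1 and 2, by 1.08 ± 0.26 (limma adjusted p = 0.019). Of the 11 measured mast cell genes, a cell type in which Hpgds is known to act, 8 were higher at weeks 4 and 6 than at weeks 1 and 2, and their part in this was not tested.

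The other 3 genes that passed encode enzymes that act on leukotrienes. Cyp4f4, a fatty acid hydroxylase, had signals of 12.1, 27.1 and 9.8 at 2 weeks against 68.7, 52.3 and 134 with no fracture. Since 2 of the 3 arrays at 2 weeks were below 20, the fall was at least 3.54-fold (-1.83 ± 0.41 with the floor, adjusted p = 0.0348 by the F test). Its relative Cyp4f6 had signals of 339, 304 and 414 at 0.4 week against 546, 541 and 584 with no fracture (-0.67 ± 0.11, adjusted p = 0.00391 by the F test). Ggt1, which converts leukotriene C4 to leukotriene D4, never exceeded 30.3 and lay below 20 on 11 arrays. At 0.4 and 1 week its signals were 8.4 to 12.4, and all were set to 20. Its change of -0.53 ± 0.05 (adjusted p = 0.00061 by the F test) is therefore only a bound on the fall, and the SE and p-value were partly set by the floor. Lta4h, which makes leukotriene B4, had signals of 1146 to 3266 and did not pass, and neither did Ptgis, the prostacyclin synthase, with 361 to 1828.

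**Figure D5:**
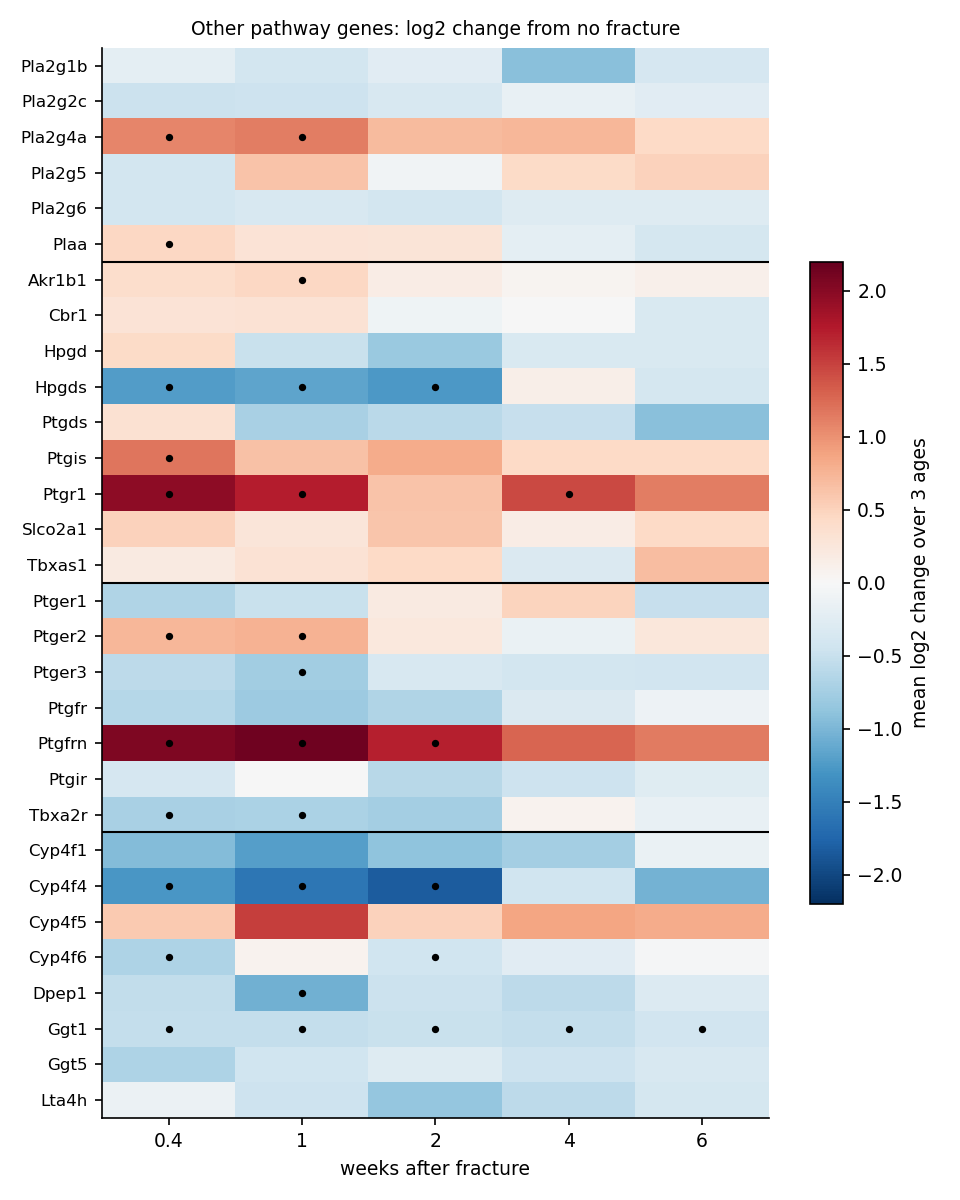
Mean log2 change from no fracture over the 3 ages (colour) for the 30 measured pathway genes other than the members, at the 5 later times, grouped from top to bottom into phospholipases, prostanoid synthesis and breakdown, prostanoid receptors, and lipoxygenases and leukotrienes. Dots mark single weeks with an adjusted p under 0.05. Ptgfrn and Ptgr1 stand out as red (2.14 and 1.96 at most) and Cyp4f4 and Hpgds as blue (-1.83 and -1.26 at most).

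The signals most like those of the leading pair were sought among 4386 probe sets with 1 gene symbol and a highest signal of at least 200. Closest to Ptgs2 over the 18 arrays were Psma4, a proteasome subunit (r = 0.92), Txnrd1, a thioredoxin reductase (0.92), Il6 (0.91), Cand1, an exchange factor of cullin ubiquitin ligases (0.90), and Cd14, a receptor for bacterial lipopolysaccharide on monocytes (0.90). Closest to Alox15 were Epb41, a protein of the red cell skeleton (0.94), Nup210, a nuclear pore protein (0.93), Gch1, the first enzyme of tetrahydrobiopterin synthesis (0.93), Asb1 (0.93) and Slc4a1 (0.92). The median r of all candidates was -0.05 with Ptgs2 and 0.03 with Alox15. Between the members themselves, Ptgs2 and Alox15 ran opposite at r = -0.76, and Alox5 and Pla2g2a ran together at r = 0.85, over arrays that share ages, times and scaling.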

How the data were processed

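The deposited intensity values are linear signals of 18 Affymetrix rat arrays, which the authors computed with Microarray Suite and brought to a mean of 500 on every array; the trimmed mean of each array was checked and fits this. Detection calls, and arrays of the study's other series, were not analysed here. Of 8799 probe sets, 59 manufacturer's controls were left out. Signals were floored at 20 and taken to log2. In the gene table, 7006 probe sets have 1 symbol, 308 several and 1426 none; only those with 1 symbol were named.

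Tests used limma 3.58.1 in R 4.3.3 with an intensity trend and Benjamini-Hochberg adjustment over all 8740 probe sets at 0.05. Changes over time were fitted with age and week as additive terms; ages were compared with a term per phase, over the later weeks, or as an interaction with fracture. The fits were tested on simulated data: for weeks 4 and 6 against 1 and 2, 58.5% of 200 simulated 2-fold and 89.5% of 200 simulated 4-fold changes were found, and for older against young rats at weeks 4 and 6 12% and 27.5%. The simulated spread was normal, 200 of 8740 probe sets changed and no floor was applied, so rates in the data may differ. Alternatives changed the floor, normalization, probe set summary, filter, model and arrays used. The members, lists and tests were chosen with earlier results of these data known. The text names all members, pathway genes that passed the F test, the 5 closest probe sets to Ptgs2 and to Alox15, and at most 4 of the brightest genes of a marker list; Lta4h and Ptgis were added after values were seen. The number of arrays limits the precision. Plots were made with matplotlib 3.10.9 (Python 3.11.15).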

Additional observations from a re-analysis of the deposited data

Results flagged for a closer look

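Ptgfrn changed from its own unfractured control by 2.19 more in older than in young rats and by 1.42 more in adult than in young rats (log2, limma adjusted p = 0.00679 and 0.0486), and stood out because the change differed between ages. The second Alox5ap probe set, rc_AI104781_at, stood out for the same reason, by 2.64 in adult against young rats (limma adjusted p = 0.00947). It lay above its own control at all 5 later times in adult rats (mean change 1.80) and below it at all 5 in young rats (mean change -0.84) and in older rats (mean change -0.23), and the difference between older and adult rats was not tested. The second Ptgs2 probe set, L25925_s_at, lay below its own control at all 5 later times in adult rats (mean change -0.79) and above it at all 5 in young rats (mean change 2.24), with a limma adjusted p of 0.0704 for adult against young rats. Each of these comparisons turns on 1 unfractured array per age.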

How the results depend on the processing

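The change of Ptgs2 at 0.4 week (5.19) was 6.92 with a floor of 1, 3.79 with 50 added to every signal and 3.19 as the mean of both probe sets, and that of Alox15 (-3.78) was -4.85 as the mean of its probe sets; leaving out an age gave 5.09 to 5.24 for Ptgs2 and -4.22 to -3.35 for Alox15. Of the members, chosen on the time course, 5 passed between weeks 4 and 6 and weeks 1 and 2 (14.8% of all probe sets). With probe sets averaged 3 passed (14.8% of all). By a t-test between these phases 3 passed (12.7% of all). At an unadjusted p under 0.01 by that t-test lay 3 members and 1324 of all 8740 probe sets. Without the young 4-week and 6-week arrays 2 passed, Alox5 and Pla2g2a (4.47% of all). With an age left out 0 to 3 passed (0.641% to 7.29% of all). Nothing is read from these counts. At weeks 4 and 6, 2 members passed for older against young rats with 50 added (2.31% of all probe sets). Of the 30 other pathway genes, 8 passed the F test (26.4% of all probe sets), and 5 with quantile normalization (26.2% of all). With a mean signal of at least 200, 5 of the 14 genes kept passed (49.3% of all kept). They included Pla2g4a, Ptgis and Tbxa2r, none of which is among the 8. By a t-test of all later arrays against the 0 time arrays 4 passed (20.7% of all). With an age left out 0 to 5 passed (0.297% to 23.3% of all). Leaving out the older 1-week array, an alternative chosen after seeing the data, gave 5 members (9.83% of all probe sets) and 7 pathway genes (19.7%). Scaling to 1 median moved the median change of all probe sets at 0.4 week to -0.02, against -0.13. The change from the own control called 0 members for adult against young rats and 1, Alox5ap, with probe sets averaged, in alternatives that were likewise chosen after seeing the data. The 3 other comparisons of older with young rats called 0 members under every alternative run. No paired analysis was possible because the labels place all arrays in the same series of the study, with 1 array for each age and time. Week was a term of every limma fit, and age of those over time. Of simulated 4-fold differences, 27.5% were found for older against young rats at weeks 4 and 6, 31% for the change from the own control, 86.5% over the 5 later weeks, 77% by the F test and 89.5% for weeks 4 and 6 against 1 and 2. These rates hold for the simulated setting, with 200 changed probe sets and no floor. Below the floor of 20 a change is only bounded.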
